A study of Mus musculus with 4 samples.

Results

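The 10 genes described here encode amino acid transporters of the plasma membrane that are known from activated T cells, and they were chosen by symbol: Slc7a5, Slc3a2, Slc43a1, Slc7a1, Slc7a6, Slc1a5, Slc1a4, Slc38a1, Slc38a2 and Slc6a6. They are 10 of 34844 gene or transcript names on the array and were read by 14 of its 55681 probes. All 14 probes passed the filter on dim signals, and 13 were well above background on all 4 arrays. Slc1a5 and Slc7a5 had 2 probes each, Slc38a1 had 3, and the other 7 genes had 1.

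The study compared CD4+ T cells of wild-type mice (WT, miR-155+/+) with those of miR155 knockout mice (miR-155-/-), each on 2 one-colour Agilent arrays. Both genotypes were cultured in RPMI with serum under CD3e and CD28 antibodies. TGF-beta and IL-6 were present as well, which favour the T helper 17 (Th17) fate. Both genotypes carried a red fluorescent reporter (RFP) of IL-17F by which the cells were sorted. Every sample is titled RFP plus, so the comparison is of reporter-positive cells. The series' title asks whether miR-155 bears on IL-23 responsiveness and on effector genes of Th17 cells. The design text calls the arrays biological replicates, and the labels used here give no age, strain background or number of animals. Since nothing links single arrays to animals or cultures, p-values measure the spread between these arrays, which may be technical in part.

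A T cell that leaves rest and begins to divide takes up far more amino acids than before, to build protein and to fuel metabolism. Large neutral amino acids such as leucine enter through a pair of proteins, a light chain that transports (Slc7a5) and a heavy chain that carries it to the membrane (Slc3a2, also called CD98), while glutamine enters largely through Slc1a5 and the sodium-coupled Slc38 carriers. Inside the cell, leucine and arginine feed the sensors that switch on the kinase complex mTORC1, and a shortage raises the transcription factor ATF4, which induces several transporter genes. The transcription factor MYC is also known to induce transporter genes in activated T cells.

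miR-155 is a microRNA of activated lymphocytes that pairs with target transcripts through its seed. Its mature sequence, from RefSeq (GRCm38.p6, chr16:84714143-84714165, plus strand), is printed because it is what the knockout lacks, with the seed, bases 2 to 8, in capitals. Probes of 2 transporters follow, for the gene with the lowest p-values and for a probe whose sign turned with the correction of 1 array: Slc1a5 probe 2 (mm9, chr7:17383027-17383086, plus strand) and Slc7a5 probe 2 (mm9, chr8:124430996-124431055, minus strand). No part of these 60-base probes is marked. Exon annotation on mm9 was not used here.
mmu-miR-155-5p: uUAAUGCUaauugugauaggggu
Slc1a5 probe 2: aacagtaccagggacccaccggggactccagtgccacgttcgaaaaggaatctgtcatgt
Slc7a5 probe 2: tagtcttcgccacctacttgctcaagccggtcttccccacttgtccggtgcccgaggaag

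Levels below are log2 processed signals minus the 75th percentile of the array, and differences are log2 knockout minus wild type with the standard error (SE) of limma's fit. The 4 arrays shared 1 slide, wild type lying in slide row 1 and the knockout in slide row 2, so an effect of the row and one of genotype cannot be told apart. Between 63.5% and 69.8% of spots per array were well above background, and 0 spots were saturated. Precision is limited by how few arrays there are. Knockout array 1 was the least even: its multiplicative detrending, a correction for uneven brightness, had reached 0.799% of spots well above background, against 100% on the other 3. The fitted surface of that array was low towards 1 corner, at the spots of Slc7a5 probe 2 and Slc43a1. All 8 T cell markers checked, among them Cd3e and Cd4, were well above background on all arrays. Their summed scaled signal, in multiples of the array's 75th percentile, was 690 and 738 in wild type and 684 and 710 in the knockout. The 5 Th17 markers summed to 29.2 and 31.2 in wild type and 11.3 and 10.8 in the knockout. B cell markers, of which 4 of 5 were tested, summed to 2.08 and 1.43 in wild type and 3.45 and 3.78 in the knockout, and their part in the results below was not tested. The sums of the CD8, NK and gamma-delta markers were 16.1 and 19.7 against 12.1 and 15.0. Klrd1, with a difference of -0.47 and an unadjusted p of 0.0849, made up most of that sum. Cd8a (1.298, unadjusted p 0.00118) and Eomes (1.05, unadjusted p 0.0238) had higher values in the knockout, with limma adjusted p-values of 0.391 and 0.446. The other tested markers of this list, Cd8b1 (-0.13) and Sox13 (-0.08), overlapped between genotypes. The part of these markers in the results was not tested either. The sums were, for the myeloid markers 14.8 and 14.8 against 15.5 and 15.2, and for the erythroid and neutrophil markers 1.17 and 1.29 against 1.19 and 1.05.

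No transporter was called different between knockout and wild type. None of the 14 probes passed limma's adjusted p of 0.05, as was so for all 37195 probes tested (0 called, percent called 0), and the smallest adjusted p of a transporter probe was 0.511. At an unadjusted p under 0.05 there were 0 of 14 transporter probes, against 10.1% of all probes (3767 probes), 6.80% higher and 3.33% lower. Their median difference was -0.04, beside 0.04 for all probes. Of them 6 had higher and 8 lower values in the knockout, against 20534 and 16661 of all probes. For 11 of the 14, the difference between genotypes was smaller than the gap between the replicate arrays of a genotype. The same count over all probes was not made, so it cannot be read as a trait of the transporters. The genotypes did not overlap for 4 of the 14 probes, the 2 of Slc1a5 and those of Slc6a6 and Slc1a4, against 46.0% of all probes. The knockout was lower for 3 of these, against 19.8% of all probes, and higher for 1, against 26.2%. These are bulk samples, in which fewer cells of a type and less RNA per cell cannot be told apart.

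**Figure D1:**
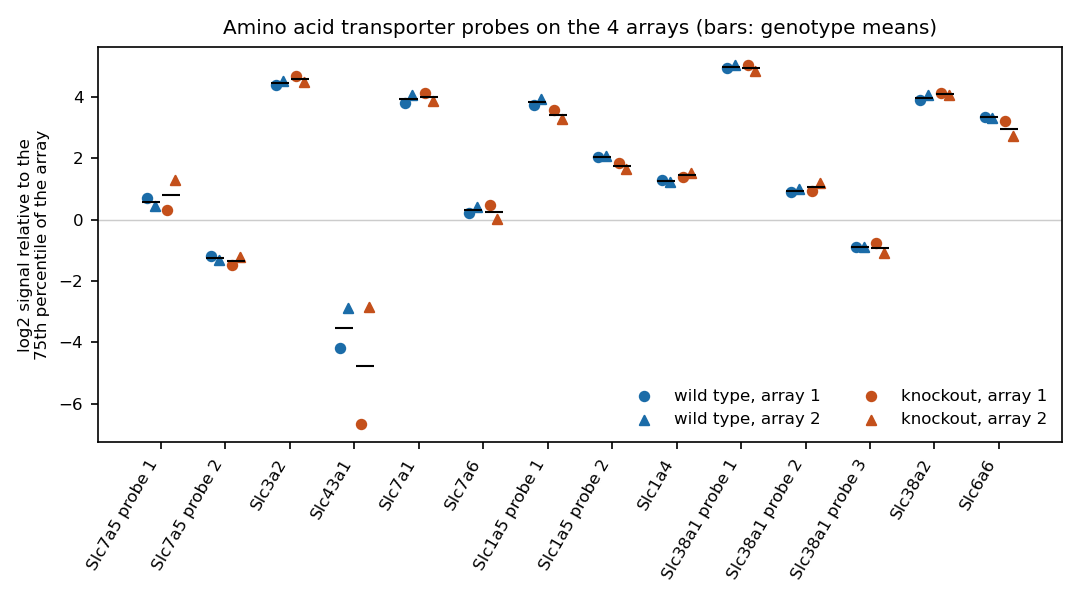
Level of each of the 14 transporter probes (horizontal axis) on each array, as log2 signal relative to the array's 75th percentile (vertical axis); blue symbols are wild type, orange the knockout, circles array 1, triangles array 2, and bars genotype means. Levels of different probes are not comparable with each other; within a probe the symbols lie close together except for Slc43a1, at -6.67 on knockout array 1, and Slc7a5 probe 1, at 1.28 on knockout array 2.

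The glutamine transporter Slc1a5 (ASCT2), a sodium-dependent exchanger of neutral amino acids, had the lowest p-values of the set. Probe 1 was at 3.74 and 3.93 on the wild-type arrays and at 3.56 and 3.29 on the knockout arrays. Probe 2, printed above, was at 2.03 and 2.06 in wild type and at 1.85 and 1.66 in the knockout. On both probes, then, each knockout array was below each wild-type array.
Probe 1 differed by -0.42 ± 0.17 (SE), a 1.33-fold lower signal, with an unadjusted p of 0.0666 and a limma adjusted p of 0.511. Probe 2 differed by -0.29 ± 0.14 (SE), with a limma adjusted p of 0.539. The 95% intervals of limma's fit ran from -0.88 to 0.04 and from -0.68 to 0.09, so a fall of more than 1.84-fold lay outside both. Both probes read the same RNA, starting at bases 2493 and 2161 of the transcript, and are not independent of each other.

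Slc1a4 (ASCT1), the close relative of Slc1a5 that carries serine, alanine and cysteine, lay on the other side. It was at 1.28 and 1.22 in wild type and at 1.40 and 1.51 in the knockout, so that both knockout arrays were above both wild-type arrays. The difference was 0.21 ± 0.13 (SE), with a limma adjusted p of 0.595 and a 95% interval from -0.15 to 0.56. The signal of Slc1a5 over that of Slc1a4 within each array, which a constant shift of an array cannot alter, was lower in the knockout by -0.62 on the log2 scale with Slc1a5 probe 1 and by -0.50 with probe 2. The knockout arrays were below the wild-type arrays in both cases, and the exact permutation test (two-sided) gave 0.333, the smallest p that 2 against 2 arrays allow and the one that any pair without overlap gives. The pair was chosen after its values had been seen.

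The promoter of Slc1a4 is shown because that gene was the one of the 10 with both knockout arrays above wild type. RefSeq windows of 250 bases before to 50 after a gene's start (GRCm38.p6) were found for 6 of the 10 genes, Slc7a1, Slc7a6, Slc3a2, Slc1a4, Slc38a2 and Slc43a1, with 8 windows in all. They were searched on both strands for TGATGNAA, letters of the composite element at which C/EBP and ATF4 proteins bind, and for CACGTG, the E-box of MYC and its partner MAX. Neither motif contains the other. TGATGNAA was in 1 of the 8 windows, that of Slc1a4, and in 3.97% of all 32851 windows, while CACGTG was in that of Slc43a1 and in 7.15% of all windows. The Slc1a4 window lies at chr11:20332664-20332963 on the minus strand. Its match, in capitals, spans bases 247 to 254 of the window, across the start, and reads TGATGNAA on the strand opposite to the one printed. A match is a description of the letters only.
Slc1a4 promoter: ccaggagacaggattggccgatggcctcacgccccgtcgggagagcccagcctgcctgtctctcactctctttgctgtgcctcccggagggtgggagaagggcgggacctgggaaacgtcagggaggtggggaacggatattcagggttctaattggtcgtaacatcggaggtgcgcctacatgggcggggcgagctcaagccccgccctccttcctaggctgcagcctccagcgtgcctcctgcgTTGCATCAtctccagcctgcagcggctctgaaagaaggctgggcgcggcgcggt

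Slc6a6 (TauT), the sodium- and chloride-coupled carrier of taurine, had lower values in the knockout as well. Its levels were 3.35 and 3.30 in wild type and 3.20 and 2.73 in the knockout. The wild-type arrays were close together and both knockout arrays lay below them, knockout array 2 by more than knockout array 1. The difference was -0.36 ± 0.21 (SE), a 1.28-fold lower signal with a limma adjusted p of 0.572 and a 95% interval from -0.92 to 0.20. It was -0.12 without knockout replicate 2 and -0.60 without knockout replicate 1, so that array 2 set much of its size.

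The Slc7a5 and Slc3a2 pair, the leucine transporter LAT1 and its heavy chain, did not differ beyond the replicate spread. Slc3a2 was at 4.37 and 4.51 in wild type and 4.68 and 4.47 in the knockout, and the genotypes overlapped. Its difference was 0.14 ± 0.15 (SE), with a limma adjusted p of 0.740 and a 95% interval from -0.27 to 0.55, so that a change of more than 1.46-fold in either direction lay outside it. Slc7a5 probe 1 was at 0.69 and 0.43 in wild type and at 0.32 and 1.28 in the knockout. Here the knockout arrays lay on either side of wild type, and the difference of 0.24 ± 0.36 (SE) had the wide interval of -0.76 to 1.23. It turned to -0.24 without knockout replicate 2 and was 0.72 without knockout replicate 1.

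Slc7a5 probe 2, printed above, was at -1.20 and -1.32 in wild type and at -1.49 and -1.20 in the knockout. The genotypes overlapped and the difference was -0.09 ± 0.17 (SE). This spot lies at array row 380 and column 135, where the fitted surface of knockout array 1 was 0.418, against 0.884 to 1.01 on the other arrays. With that surface applied, its level on knockout array 1 became -0.27 and the difference turned to 0.52, with an adjusted p of 0.598 by limma. The 2 probes of Slc7a5 thus had opposite signs before the correction and the same sign after it. That shared sign rested on different arrays, so it is not agreement of the probes. After the correction, probe 2 was above wild type only on knockout array 1. Probe 1 was above it only on knockout array 2, at 1.28, and was at 0.22 on knockout array 1. The SE of probe 2 rose to 0.35.

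Slc43a1 (LAT3), which carries large neutral amino acids without a heavy chain, had the widest interval of the 14 probes and was the one probe not well above background on every array. It was at -4.18 and -2.90 in wild type and at -6.67 and -2.85 in the knockout. On knockout array 1 it was not well above background, and on the other 3 arrays it was. The probe lies at row 377 and column 152, in a corner block, and the surface of knockout array 1 at this spot was 0.199. Its difference was -1.22 ± 1.40 (SE) with a 95% interval from -5.04 to 2.60. It was -0.04 with normexp background correction, 0.69 without knockout replicate 1 and -3.13, with an unadjusted p of 0.0140 and a limma adjusted p of 0.372, without knockout replicate 2. A correction was not applied to this spot on knockout array 1, since it applied to spots well above background.

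**Figure D2:**
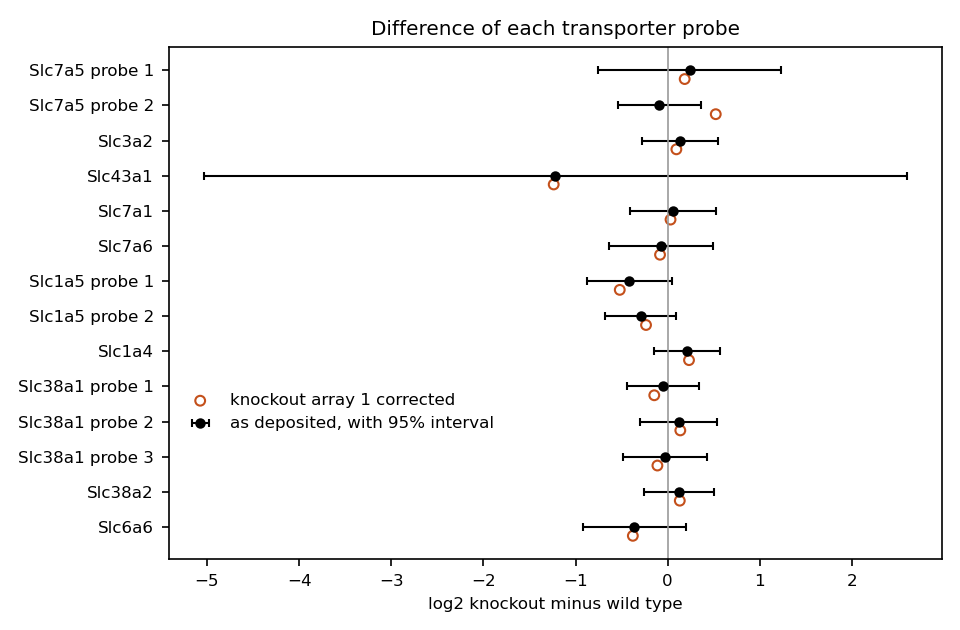
Log2 difference, knockout minus wild type (horizontal axis), of each transporter probe (vertical axis). Black points, labelled as deposited, use the deposited processed signal shifted by the array's 75th percentile, not the deposited matrix. Their bars are limma's 95% interval. Open orange circles are the differences with the uneven brightness of knockout array 1 corrected. All 14 intervals cross 0, and the correction moves the Slc7a5 probe 2 from -0.09 to 0.52.

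The carriers of cationic amino acids had differences near 0. Slc7a1 (CAT1), the main entry route of arginine and lysine, was at 3.81 and 4.05 in wild type and 4.11 and 3.87 in the knockout. Both genotypes covered the same range, and the difference was 0.06 ± 0.17 (SE) with a 95% interval from -0.41 to 0.53. Slc7a6 (y+LAT2), which pairs with Slc3a2 and exchanges cationic for neutral amino acids, was at 0.23 and 0.40 in wild type and 0.47 and 0.02 in the knockout. The knockout arrays enclosed the wild-type arrays, and the difference was -0.07 ± 0.21 (SE). Slc7a6 relative to Slc3a2 within each array was -4.15 and -4.10 in wild type and -4.22 and -4.45 in the knockout, with an exact permutation p of 0.333 (two-sided), which is again that minimum. Of the 8 such pairs computed, 4 gave it, while Slc7a5 relative to Slc3a2 gave 1 and 0.667 for its 2 probes.

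The sodium-coupled system A carriers Slc38a1 (SNAT1) and Slc38a2 (SNAT2), which take up glutamine and alanine, also overlapped between genotypes. Slc38a1 probe 1 was at 4.93 and 5.04 in wild type and at 5.02 and 4.84 in the knockout. Its difference was -0.05 ± 0.14 (SE) with a 95% interval from -0.44 to 0.34. Slc38a1 probes 2 and 3 had differences of 0.12 ± 0.15 and -0.03 ± 0.17 (SE), so the 3 probes of this gene differed in sign but not beyond their errors. Slc38a1 relative to Slc38a2 within each array gave exact permutation p-values of 0.333, 1 and 0.667 for probes 1, 2 and 3.
Slc38a2, a known target of ATF4 when amino acids run short, was at 3.90 and 4.06 in wild type and at 4.14 and 4.06 in the knockout. The difference was 0.12 ± 0.14 (SE), with a limma adjusted p of 0.755 and a 95% interval from -0.26 to 0.50, so that a rise of more than 1.41-fold lay outside it.

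Scaling bears on these small differences. With each array shifted by its median instead of its 75th percentile, the median of all probes moved from 0.04 to -0.12, and the share of higher values among probes at an unadjusted p under 0.05 from 67.2% to 27.5%. Under that scaling Slc3a2 turned to -0.02, Slc7a1 to -0.10, Slc38a2 to -0.04 and Slc38a1 probe 2 to -0.04, all of them near the new median. The values of Slc1a5 became -0.58 and -0.45 and that of Slc6a6 became -0.52, each with an unadjusted p under 0.05 (0.0119, 0.0264 and 0.0451) and a limma adjusted p of 0.384 to 0.395. Those 3 of 14 probes compare with 12.6% of all probes under the same scaling. Slc1a5 and Slc6a6 had lower and Slc1a4 higher values in the knockout under every setting that could give them one. The ranges were -0.58 to -0.28 and -0.45 to -0.19 for the Slc1a5 probes, -0.60 to -0.12 for Slc6a6 and 0.05 to 0.26 for Slc1a4. Their genotypes did not overlap, so leaving out an array could not turn these signs. Settings of the filter, prior, block and probe choice kept the same values by construction. The constant sign therefore draws on few settings.

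**Figure D3:**
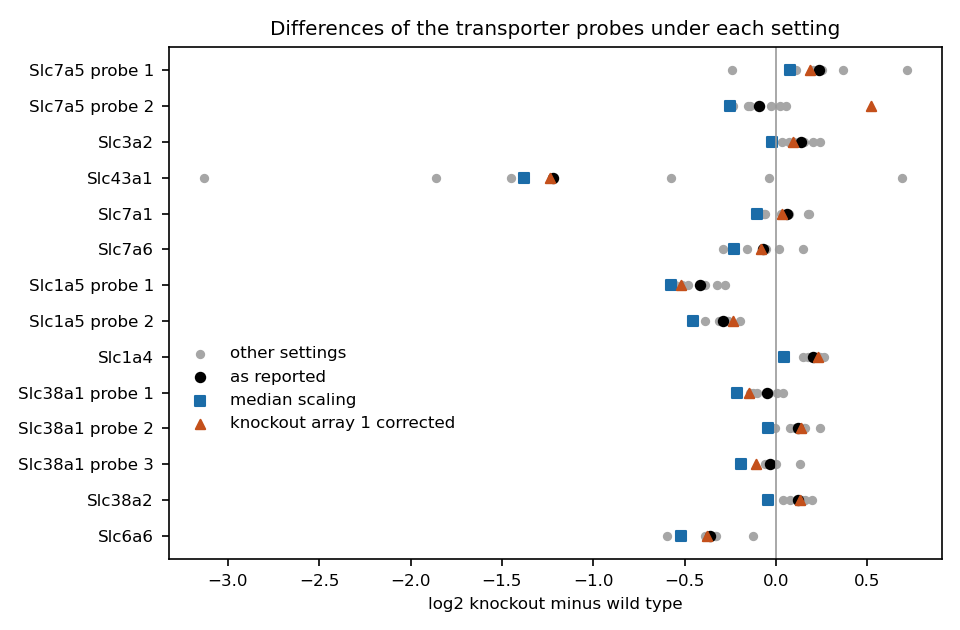
Log2 difference, knockout minus wild type (horizontal axis), of each transporter probe (vertical axis) under each processing setting; black circles are the values as reported, blue squares median scaling, orange triangles knockout array 1 corrected, and grey circles the other settings. The Slc1a5 and Slc6a6 probes lie below 0 and Slc1a4 above 0 throughout, which leaving out an array could not change. Slc43a1 runs from -3.13 to 0.69.

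Among 34 other amino acid transporters, 22 were tested, and several relatives of the 10 had higher signals in the knockout by more than the replicate gap. By gene, with its brightest tested probe, 4 of the 22 had an unadjusted p under 0.05, all with higher values, and 0 passed limma's adjusted p. The share was 9.93% of all 25221 genes (6.65% higher, 3.28% lower). All genes here means every gene or transcript name tested, lincRNA regions among them. Without lincRNA probes, the median difference of all probes was 0.013 rather than 0.036. The genotypes did not overlap for 10 of the 22, 9 higher and 1 lower, against 47.0% of all genes (26.1% higher, 20.8% lower). The median difference of the list was 0.14, against 0.03 for all genes. Slc7a3 (CAT3), a cationic carrier related to Slc7a1, was at -0.68 and -0.59 in wild type and at 0.54 and 0.39 in the knockout. Both knockout arrays were well above wild type, by 1.097 ± 0.138 (SE) or 2.14-fold, with an unadjusted p of 0.00112 and a limma adjusted p of 0.390. Slc7a2 (CAT2), the cationic carrier tied to arginine use in activated macrophages, differed by 1.13 ± 0.31 (SE), and by 0.65 with normexp background correction. Slc7a8 (LAT2), which like Slc7a5 pairs with Slc3a2, differed by 0.94 ± 0.15 (SE), and by 0.60 with normexp. Slc3a1, the heavy chain of the renal cystine carrier, differed by 0.64 ± 0.18 (SE), and by 0.44 with normexp. Slc7a2, Slc7a8 and Slc3a1 were dim, with wild-type means of -4.11, -3.72 and -4.90, though well above background on all arrays. Dim probes leaned upward: without the filter on dim signals, the median difference of all probes was 0.12 rather than 0.04. The part of this in the values of these 3 genes was not tested. Slc7a11, the light chain of the cystine and glutamate exchanger, was not well above background on any array.

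Genes that act on the amino acids once inside the cell had shares past the unadjusted threshold that are read against the 9.93% of all genes (6.65% higher, 3.28% lower). Of 28 genes of amino acid sensing upstream of mTORC1, all tested, 1 had such a p, with lower values, and the median was -0.03. The lower one was Rragb, a Rag GTPase that brings mTORC1 to the lysosome, at -2.96 and -2.74 in wild type and -3.95 and -4.12 in the knockout, a difference of -1.18 ± 0.16 (SE), which was -0.40 with normexp background correction. Mtor itself differed by 0.07 ± 0.13 (SE) and by -0.09 with median scaling. Of the 26 tested genes of amino acid metabolism, 3 had such a p, all with higher values, a share near that of all genes, and the median was 0.06: Arg1, the arginase that breaks down arginine, at 2.02 ± 0.68 (SE), Asns, which makes asparagine, at 0.57 ± 0.20 (SE), and Pycr1, a proline synthesis gene, at 0.56 ± 0.18 (SE), with its other tested probe at 0.12. Arg1 was at -0.24 and -2.15 on the wild-type arrays and at 0.64 and 1.004 in the knockout, so most of its error came from wild type, and the difference was 1.07 without wild-type replicate 2. That of Asns was 0.36 without wild-type replicate 1.

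Of 9 regulators of transporter genes, 3 had an unadjusted p under 0.05, with higher values for 2 and lower for 1, against 9.93% of all genes (6.65% higher, 3.28% lower), and the median was 0.12. Myc, a known inducer of transporter genes, was at 3.94 and 4.23 in wild type and at 3.65 and 3.32 in the knockout. Both knockout arrays lay below wild type, by -0.60 ± 0.20 (SE), with a limma adjusted p of 0.477. Atf4 differed by 0.08 ± 0.14 (SE), and by -0.08 with median scaling, while its other tested probe was at 0.28. Trib3, a pseudokinase gene that ATF4 induces, differed by 0.53 ± 0.14 (SE), and Nupr1, another stress-induced gene, by 0.61 ± 0.21 (SE), or 0.37 without wild-type replicate 2. Of 9 other nutrient carriers, 1 had such a p, against the same 9.93%, the folate carrier Slc19a1, at -0.50 ± 0.16 (SE), and its 2 tested probes ran from -0.50 to 0.25. Slc2a1, the main glucose transporter of activated T cells, was at 5.83 and 5.98 in wild type and 5.82 and 5.65 in the knockout, a difference of -0.17 ± 0.15 (SE). Tfrc, the transferrin receptor that marks proliferating cells, differed by 0.10 ± 0.15 (SE), with a range of -0.33 to 0.10 over its 3 tested probes.

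**Figure D4:**
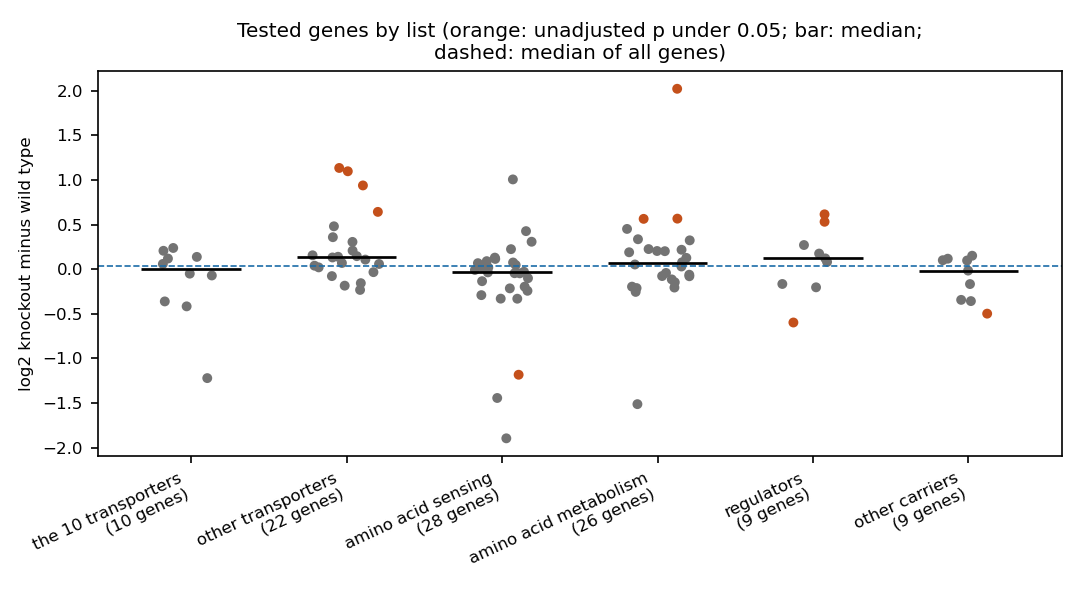
Log2 difference, knockout minus wild type (vertical axis), of each tested gene in the 6 lists (horizontal axis), by its brightest tested probe; orange points had an unadjusted p under 0.05, bars are list medians and the dashed line is the median of all genes. The 10 transporters hold no orange point, and the 4 orange points of the other transporters lie between 0.64 and 1.13.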

How the data were processed

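Total RNA was labelled with Cy3 and hybridised to 1-colour arrays. The authors deposited Agilent Feature Extraction 10.5.1.1 files, per the file headers, which give a processed signal, a linear intensity with background subtracted and detrending applied. These deposited files also hold the fitted detrending surface, a linear ratio. A deposited matrix of log2 values, made by steps not stated in the labels, differed from the log2 processed signal by 1 constant per array, within 0.001 for 99.4% to 99.5% of probes. Its columns all had a median of 5.54, and it served as an alternative.

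Outlier spots were dropped, the other spots of each probe averaged, and each array shifted by its 75th percentile (pandas 2.3.3). A probe was tested if both arrays of at least 1 genotype were well above background. limma 3.58.1 in R 4.3.3 (2 residual and 2.19 prior degrees of freedom), tested on simulated data, gave p-values with Benjamini-Hochberg adjustment over all 37195 probes, and 95% intervals. Of the listed genes and markers, 146 matched by symbol, 7 by RefSeq accession and 1 did not match. Beside the 10 transporters, the genes named were, of each list, at most 4 with the largest difference among those at an unadjusted p under 0.05 without overlap, and Myc, Atf4, Slc7a11, Slc2a1, Tfrc and Mtor; 1 further gene of that rule is not reported here. Alternatives covered scaling, background correction, filters, the prior, probe choice, a correction of knockout array 1 by its surface, the replicate block and leaving out each array. Members and lists were chosen with earlier results of these data known. Whether the deletion shows in the miR-155 transcript was not analysed here.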

Additional observations from a re-analysis of the deposited data

How the results depend on the processing

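No transporter probe passed limma's adjusted p of 0.05 under any of the 18 settings, and neither did a gene of the other amino acid lists. Over all probes the count of calls was 0 except without wild-type replicate 1, where it was 53. At an unadjusted p under 0.05, the main counts were 2530 higher and 1237 lower probes. They were 1292 and 3398 with median scaling, 1292 and 3397 with the deposited matrix, and 7310 higher with normexp background correction. Quantile scaling gave 2065 lower probes. Leaving out 1 array gave 1736 to 3331 higher and 601 to 1739 lower probes. Of the 14 transporter probes, 3 had that p with median scaling and with the deposited matrix. With normexp, a trended prior and knockout array 1 corrected, 1 probe each had it. The share of all probes was 12.6%, 12.6%, 24.2%, 10.9% and 10.4% in that order. The other amino acid genes at that p numbered 12 (22, 28, 26, 9 and 9 tested by list), against 9.93% of all genes. They numbered 19 with normexp and 7 without a filter on dim probes. The share of all probes was 24.2% and 7.76% there, against 10.1%. The median difference of the transporter probes, -0.04, was -0.20 with median scaling and with the deposited matrix, 0.013 with normexp, 0.0044 with 1 probe per gene, and -0.044 to 0.018 with 1 array left out.

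Values that changed sign were all small or rested on 1 array. With the deposited matrix, as with median scaling, Slc7a1 was at -0.10, Slc3a2 at -0.023, Slc38a1 probe 2 at -0.042, Slc38a2 at -0.041, Mtor at -0.085, Atf4 at -0.079 and Tfrc at -0.061 (-0.060 with median scaling). With normexp Slc7a5 probe 2 was at 0.023 and Slc38a1 probe 3 at 0.0026. With knockout array 1 corrected that Slc7a5 probe was at 0.52 and Mtor at -0.054. With 1 array left out, values ran from -0.065 to 0.18 for Slc7a1, -0.24 to 0.72 and -0.23 to 0.055 for the Slc7a5 probes, -0.29 to 0.15 for Slc7a6, -0.14 to 0.040, -0.0039 to 0.24 and -0.19 to 0.13 for the Slc38a1 probes, -3.13 to 0.69 for Slc43a1 and -0.014 to 0.21 for Tfrc. The causes were not tested. A genotype left with 1 array was assumed to vary like the other.

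The replicate number as a block gave 814 lower probes at an unadjusted p under 0.05 and 0 at an adjusted one. At the unadjusted p were 0 of 14 transporter probes and 8 other amino acid genes (22, 28, 26, 9 and 9 tested by list). The share of all probes was 7.62%. Deviations of same-numbered arrays from their genotype means had a correlation of -0.0037 across probes, and those of unlike number 0.0037. With 2 arrays per genotype these values are equal and opposite by construction. Whether same-numbered samples share a culture or a day cannot be read from them. Leaving out the corner blocks or the lincRNA probes was chosen after seeing the data.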
